A study of Mus musculus with 7 samples.

Results

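The genes described here are 10 mouse genes of pigment synthesis and of the retinal pigment epithelium (RPE), *Tyr*, *Tyrp1*, *Dct*, *Pmel*, *Mlana*, *Slc45a2*, *Oca2*, *Mitf*, *Best1* and *Ttr*. They were chosen by symbol from the 52550 genes of a total RNA-seq count table, and all 10 were among the 20128 genes that passed the expression filter and were tested. The libraries came from retinas of 4 wild-type (WT) mice and 3 SCA7 knock-in mice, all C57BL/6J and 12.5 weeks old, with the 2 retinas of a mouse pooled in 1 library. SCA7 mice were homozygous for an expanded CAG repeat in exon 1 of *Atxn7* under its own promoter, so every cell of these mice, the RPE and choroid included, carried the mutation. WT mice carried no engineered allele. The knock-in is a single mouse line, and the study analyzed males and females. Spinocerebellar ataxia type 7 is a polyglutamine disorder of the cerebellum and the retina.

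The RPE is a pigmented monolayer that lies against the photoreceptor outer segments. It regenerates the chromophore of the visual pigments, engulfs shed outer segment tips and exchanges ions and nutrients with the choroid. Melanin is made in melanosomes, by the RPE and the pigmented ciliary and iris epithelia, which derive from the optic cup, and by melanocytes of the choroid and iris, which derive from the neural crest. Tyrosinase (*Tyr*) and its relatives (*Tyrp1*, *Dct*) make the pigment on fibrils of PMEL, with ion transporters (*Oca2*, *Slc45a2*) setting the melanosome lumen. MITF is the transcription factor that drives many of these genes. The neural retina makes no melanin, so RNA of most of these genes in a retina library is read here against RNA of epithelium and choroid in the same library.

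Library totals lay between 56497675 and 96635832 counts, so that 1 count equalled between 0.00972 and 0.0188 counts per 1000000 (CPM) after TMM scaling. The tissue label was checked against marker lists. The summed level of 5 rod markers was from 54247 to 56527 CPM in WT and from 13284 to 17686 CPM in SCA7 retina. The summed level of 12 RPE markers was from 166 to 268 CPM in WT and from 93.5 to 110.2 CPM in SCA7, and none of the 12 was at 0 in any library. Most of the RPE marker sum came from *Rgr* and *Krt18* in WT, and *Rgr* is also used by Müller glia. These are bulk samples, in which fewer RPE cells carried along with the retina and less RNA per RPE cell cannot be told apart.

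Of the 10 genes, 1 was downregulated in SCA7 retina (*Ttr*, adjusted p under 0.05 and fold change under 0.7) and 1 was upregulated (*Slc45a2*, adjusted p under 0.05 and fold change above 1.3). Among all genes tested, 7.91% were downregulated and 7.47% upregulated, and 15.4% were called in either direction. Of the members, 2 of 10 were called, and 8 were not. Their median log2 fold change (log2FC, SCA7 over WT) was 0.049, against -0.019 for all genes tested. For *Ttr*, every SCA7 library lay below every WT library, whereas in the other 9 genes the genotypes overlapped. Over all genes tested, the genotypes did not overlap in 37.5%.

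**Figure D1:**
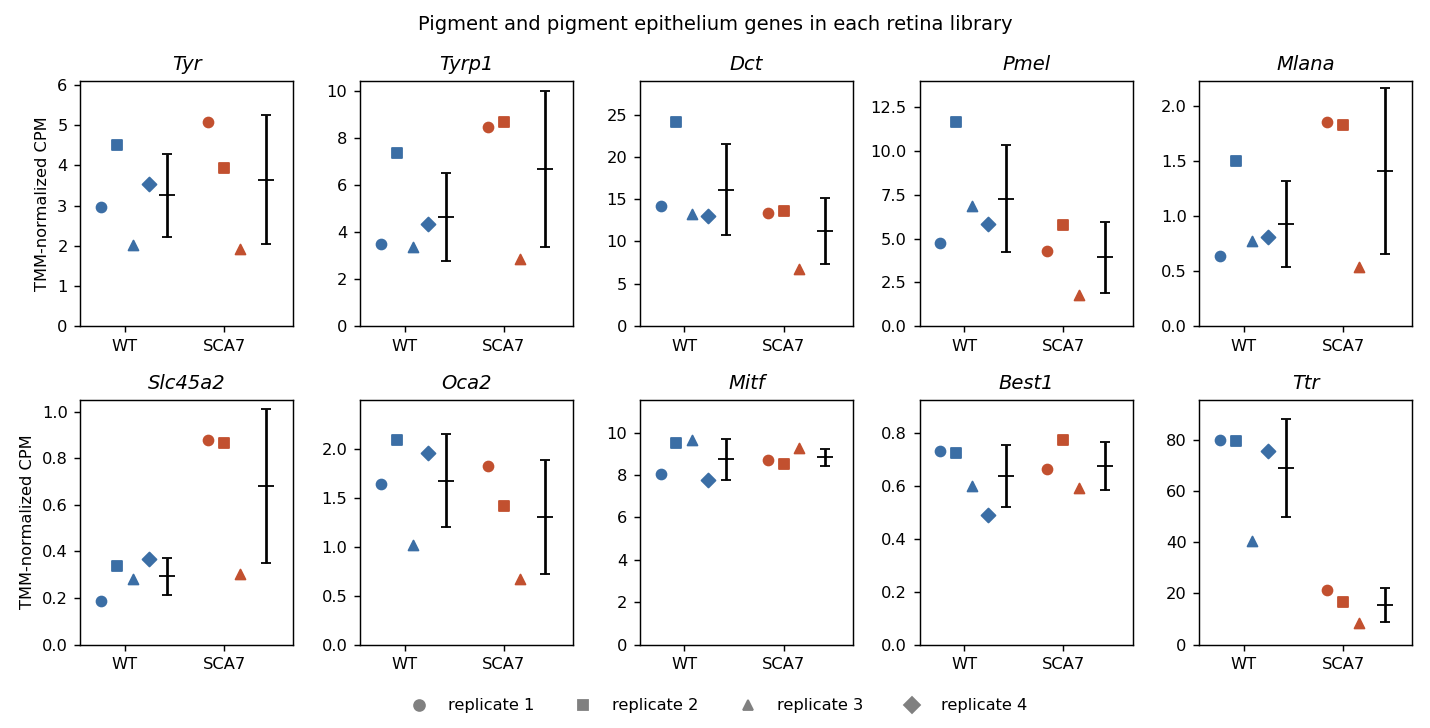
TMM-normalized CPM (vertical axes, each starting at 0) of the 10 genes in the 4 WT libraries (blue) and the 3 SCA7 libraries (orange), with the marker shape giving the replicate number and black bars the mean ± SD. The genotypes are apart for Ttr, SCA7 replicate 3 is the lowest SCA7 library in 9 of the 10 panels, and Mitf and Best1 vary little.

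In WT retina the level per kilobase of median transcript length was highest for *Ttr*, at 58.1 ± 16.2 CPM per kb (SD, n = 4). *Pmel* followed at 11.2 ± 4.69 and *Dct* at 7.93 ± 2.63 CPM per kb, and these neighbours did not differ beyond their spread. *Mitf* had 4.34 ± 0.484 CPM per kb and *Tyrp1* 2.51 ± 1.02 CPM per kb. *Tyr*, *Mlana* and *Oca2* lay within their spread of each other, at 1.39 ± 0.445, 1.13 ± 0.471 and 0.997 ± 0.285 CPM per kb. *Best1* was at 0.370 ± 0.0676 and *Slc45a2* at 0.0982 ± 0.0263 CPM per kb. With the union of exons as length, *Ttr* and *Pmel* stayed at the top and *Slc45a2* at the bottom, but *Tyrp1* moved above *Mitf* and *Mlana* above *Tyr*. The values themselves depended on the length used, with *Pmel* at 3.18, *Dct* at 2.74, *Mitf* at 1.41, *Tyr* at 0.458, *Oca2* at 0.422 and *Best1* at 0.247 CPM per kb of exon union.

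The 3 enzymes of the tyrosinase family are shown with the sequence they share. *Tyr* (ENSMUSG00000004651; chromosome 7 from 87424771 to 87493512 of GRCm38, the assembly also called mm10) encodes the rate-limiting oxidase of melanin synthesis. *Tyrp1* (ENSMUSG00000005994; chromosome 4 from 80834123 to 80851719) and *Dct* (ENSMUSG00000022129; chromosome 14 from 118012790 to 118052244) encode related enzymes that act on its later intermediates. Regulatory regions of this family are known for the M-box, a site of MITF, searched here as TCATGTG on both strands in RefSeq promoter windows (GRCm38.p6, from 250 bases before to 50 after the annotated start). The windows of *Tyr*, *Tyrp1* and *Dct* each held a match, at 22, 47 and 151 bases before the RefSeq start, and *Dct* held another on the opposite strand. The *Tyrp1* match lies inside the bounds given above for the gene, since the 2 annotations place its start differently. No match was found in the windows of *Oca2*, *Mitf* (3 windows) and *Best1*, and no window was at hand for the other 4 members. Of all 32851 windows, 3.77% held the motif. Among the 12 RPE markers, all with a window, the match was in *Kcnj13*. Each stretch of 30 bases is printed on the strand of its gene, with the M-box in capitals, to show how far the match extends beyond the motif.
Tyr, chr7:87493517-87493546, minus strand: agaaaaagttagTCATGTGctttgcagaag
Tyrp1, chr4:80834154-80834183, plus strand: gtggggagggagTCATGTGctgcctagtag
Dct, chr14:118052380-118052409, minus strand: gtgcacttagggTCATGTGctaacaaagag
Kcnj13, chr1:87394824-87394853, minus strand, motif on the opposite strand: agcattcttttcCACATGAtcagagctaat
A match is a description of these letters and not a measured binding site.

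*Tyr* had 2.955, 4.50, 2.03 and 3.53 CPM in WT replicates 1 to 4 and 5.09, 3.95 and 1.91 CPM in SCA7 replicates 1 to 3. The SCA7 libraries held both the highest and the lowest of the 7 values. The log2FC of 0.14 ± 0.37 (± standard error, SE) did not pass the test (edgeR quasi-likelihood, Benjamini-Hochberg adjusted p = 0.81). *Tyrp1* had 3.47, 7.34, 3.34 and 4.31 CPM in WT and 8.47, 8.67 and 2.87 CPM in SCA7. Again the highest and the lowest value were both from SCA7 mice, and the log2FC of 0.51 ± 0.49 (SE) did not pass the test (adjusted p = 0.49). *Dct*, the most abundant of the 3 in CPM, had 14.2, 24.1, 13.2 and 13.0 CPM in WT and 13.3, 13.6 and 6.69 CPM in SCA7. SCA7 replicates 1 and 2 lay within the WT range, and the log2FC was -0.54 ± 0.36 (SE; adjusted p = 0.32).

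*Pmel* encodes the protein of the melanosome fibrils and *Mlana* a small membrane protein of early melanosomes. *Pmel* had 4.75, 11.7, 6.85 and 5.84 CPM in WT and 4.31, 5.77 and 1.75 CPM in SCA7. Only SCA7 replicate 2 was inside the WT range, and the log2FC of -0.90 ± 0.51 (SE) did not pass the test (adjusted p = 0.25). Exons of *Pmel* overlap *Cdk2* and *Dgka* on the opposite strand, and the strand setting of the counting is not given in the sources used here, so its counts may include reads of those genes. *Mlana* went the other way, with 0.632, 1.496, 0.769 and 0.811 CPM in WT and 1.85, 1.83 and 0.535 CPM in SCA7. SCA7 replicates 1 and 2 lay above all WT libraries and replicate 3 below all of them, and the log2FC was 0.56 ± 0.47 (SE; adjusted p = 0.43). Without SCA7 replicate 3 the log2 fold change was 0.97 and *Mlana* was upregulated (adjusted p = 0.034).

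*Slc45a2* and *Oca2* encode membrane transporters of the melanosome, and mutations in either cause albinism. *Slc45a2* (ENSMUSG00000022243; chromosome 15 from 11000721 to 11029233) rose in SCA7 retina, with 11, 24, 15 and 24 counts in the WT libraries and 54, 74 and 31 counts in the SCA7 libraries. In CPM the values were 0.188, 0.336, 0.281 and 0.367 in WT and 0.878, 0.867 and 0.301 in SCA7. SCA7 replicates 1 and 2 stood above all WT libraries and replicate 3 lay inside the WT range. The log2FC was 1.17 ± 0.37 (SE; edgeR adjusted p = 0.036), and an exact two-sided permutation test, with 35 possible assignments of the genotypes, gave p = 0.11. The call was kept in 2 of the 7 fits that left out a library, without WT replicate 4 and without SCA7 replicate 3, and was lost in the other 5, with adjusted p up to 0.15. *Oca2* had 1.64, 2.08, 1.01 and 1.96 CPM in WT and 1.82, 1.42 and 0.671 CPM in SCA7, with 2 of the 3 SCA7 libraries inside the WT range (log2FC -0.40 ± 0.34 SE, adjusted p = 0.42).

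Within each genotype, these 7 melanin genes differed between mice. In SCA7 replicate 3 each of the 7 was at its lowest among the SCA7 mice, and 6 of the 7 at their lowest of all libraries. The mean of the other 2 SCA7 libraries was between 2.01 and 3.44 times the level in replicate 3. Among WT mice, 6 of the 7 genes were highest in replicate 2, and the coefficient of variation was from 26.8% to 41.95% in WT and from 34.96% to 53.7% in SCA7. Their summed level was 27.8, 51.6, 27.5 and 29.8 CPM in WT replicates 1 to 4 and 35.7, 36.1 and 14.7 CPM in SCA7 replicates 1 to 3. Most markers of RPE and stroma were also low in SCA7 replicate 3. Of the 12 RPE markers, 9 were at their lowest of all libraries there. Of the 8 choroid and sclera stroma markers, 6 were at their lowest among the SCA7 libraries and 5 at their lowest of all. Some other lists had their highest SCA7 sum in replicate 3. In SCA7 replicates 1 to 3, neural crest melanocyte markers summed to 7.33, 7.68 and 7.85 CPM. Markers of choroid plexus and ciliary epithelium summed to 188, 195 and 202 CPM, and endothelial markers to 244, 213 and 273 CPM. The share of all tested genes at their lowest in SCA7 replicate 3 was not counted. Lens RNA varied over a wider range. The summed level of 5 lens markers was 10.6, 33.5, 19.8 and 3.49 CPM in WT and 29.0, 56.2 and 3.54 CPM in SCA7, with 1 of the markers at 0 counts in some libraries. Its lowest SCA7 library and its highest WT library are those of the melanin genes. The part of RPE, stroma and lens RNA in the levels of the melanin genes was not tested.

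*Mitf* and *Best1* had the steadiest levels of the 10. *Mitf* (ENSMUSG00000035158; chromosome 6 from 97807052 to 98021349) had 8.05, 9.54, 9.64 and 7.77 CPM in WT and 8.69, 8.53 and 9.29 CPM in SCA7. All SCA7 values lay within the WT range, and the log2FC was 0.016 ± 0.097 (SE; adjusted p = 0.92). *Mitf* is annotated with 8 transcripts, among them forms of the RPE and of melanocytes, and counts per gene do not separate them. SCA7 replicate 3, lowest for the melanin genes, was the highest SCA7 library for *Mitf*. *Best1*, which encodes a chloride channel of the basolateral RPE membrane, had 32 to 52 counts in WT and 41 to 66 counts in SCA7. Its CPM were 0.735, 0.727, 0.6001 and 0.489 in WT and 0.666, 0.773 and 0.593 in SCA7, with a log2FC of 0.083 ± 0.20 (SE; adjusted p = 0.80). The gene most like *Mitf* over the 7 libraries, of 14719 tested genes averaging 1 CPM or more, was *Cldn12* (Pearson r = 0.99 of log2 CPM), followed by *Abi1*, *Rab39b*, *Snx3* and *Fkbp4* (the last at 0.96), all with log2 fold changes between -0.021 and 0.017. This ranking is a description of 7 points chosen from many genes.

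*Ttr* fell in SCA7 retina. It encodes transthyretin, a carrier of thyroxine and of retinol with its binding protein, which in the eye is made mainly by the RPE. *Ttr* (ENSMUSG00000061808, on chromosome 18) had 79.9, 79.8, 40.4 and 75.8 CPM in WT replicates 1 to 4 and 21.4, 16.5 and 8.47 CPM in SCA7 replicates 1 to 3. The lowest WT library, replicate 3, was still above the highest SCA7 library. WT retina averaged 69.0 ± 19.2 CPM (SD, n = 4) and SCA7 retina 15.4 ± 6.51 CPM (SD, n = 3), 4.505-fold lower in the fit. The log2FC was -2.17 ± 0.43 (SE; edgeR adjusted p = 0.016). The exact permutation test gave p = 0.0286, the smallest that 35 assignments allow. Without SCA7 replicate 2 the log2 fold change was -2.23 but the adjusted p was 0.061, whereas the other 6 fits that left out a library kept the call.

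**Figure D2:**
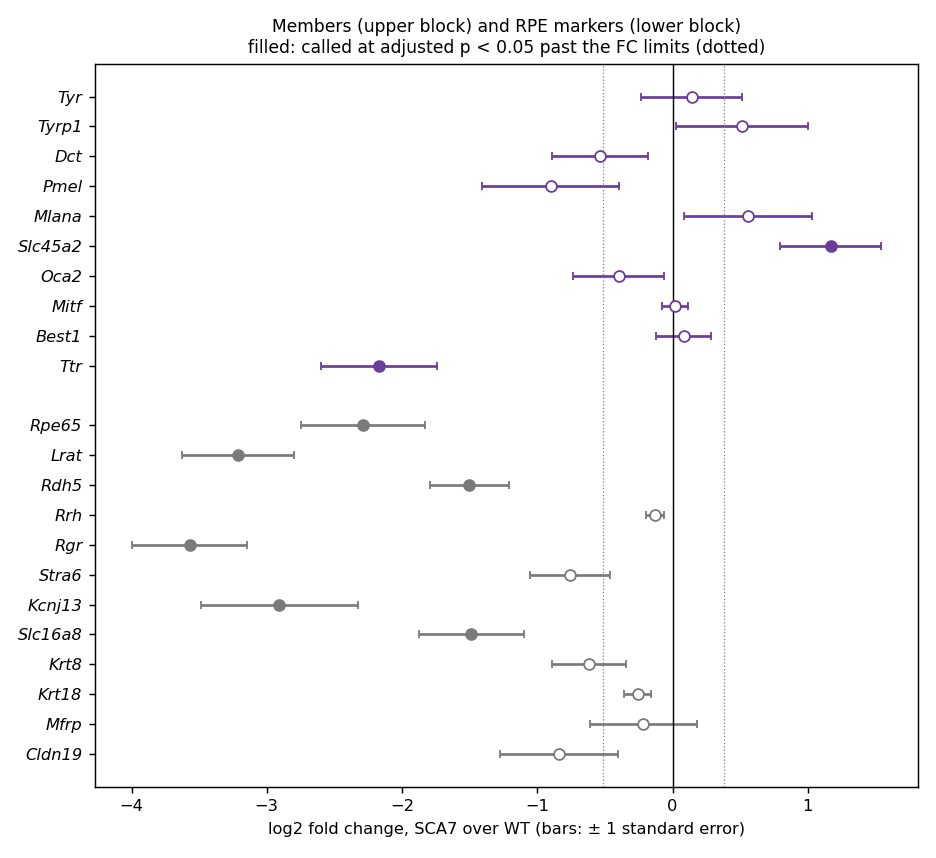
Log2 fold change of SCA7 over WT (horizontal axis) with bars of ± 1 standard error, for the 10 members (purple) and the 12 RPE markers (grey). Filled points passed the test and the fold change limits, drawn as dotted lines. Ttr at -2.17 lies among the RPE markers that fell, and the melanin genes lie on either side of 0.

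*Ttr* was compared with the RPE markers in the same libraries. Of the 12 RPE markers, 6 were downregulated and none upregulated, against 7.91% of all genes downregulated, and all 12 had a log2 fold change below 0, with a median of -1.17. Those that fell were *Rgr*, an opsin of RPE and Müller glia (-3.57), *Lrat*, which makes retinyl esters (-3.21), *Kcnj13*, a potassium channel (-2.91), *Rpe65*, the isomerase of the visual cycle (-2.29), *Rdh5*, an 11-cis-retinol dehydrogenase (-1.501), and *Slc16a8*, a lactate transporter (-1.49), with adjusted p between 0.0022 and 0.027. The 6 others had log2 fold changes from -0.84 for *Cldn19* to -0.13 for *Rrh*, with adjusted p between 0.072 and 0.73. *Rpe65* had 24.1, 22.5, 10.6 and 27.3 CPM in WT and 6.13, 4.49 and 2.58 CPM in SCA7. Its lowest WT library and its lowest SCA7 library were replicates 3, as for *Ttr*. Without SCA7 replicate 2, *Rpe65*, *Kcnj13* and *Slc16a8* also missed the threshold (adjusted p = 0.064, 0.054 and 0.079), and *Slc16a8* did so without WT replicate 4 (adjusted p = 0.075). Across the 7 libraries, the genes most like *Ttr* of the 14719 were *Rdh5* and *Rpe65* (Pearson r = 0.99 of log2 CPM for each), then *Gm37639*, *Rgr* and *Gm10419* (the last also at 0.99). The points share the difference between genotypes, so these r are descriptions.

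**Figure D3:**
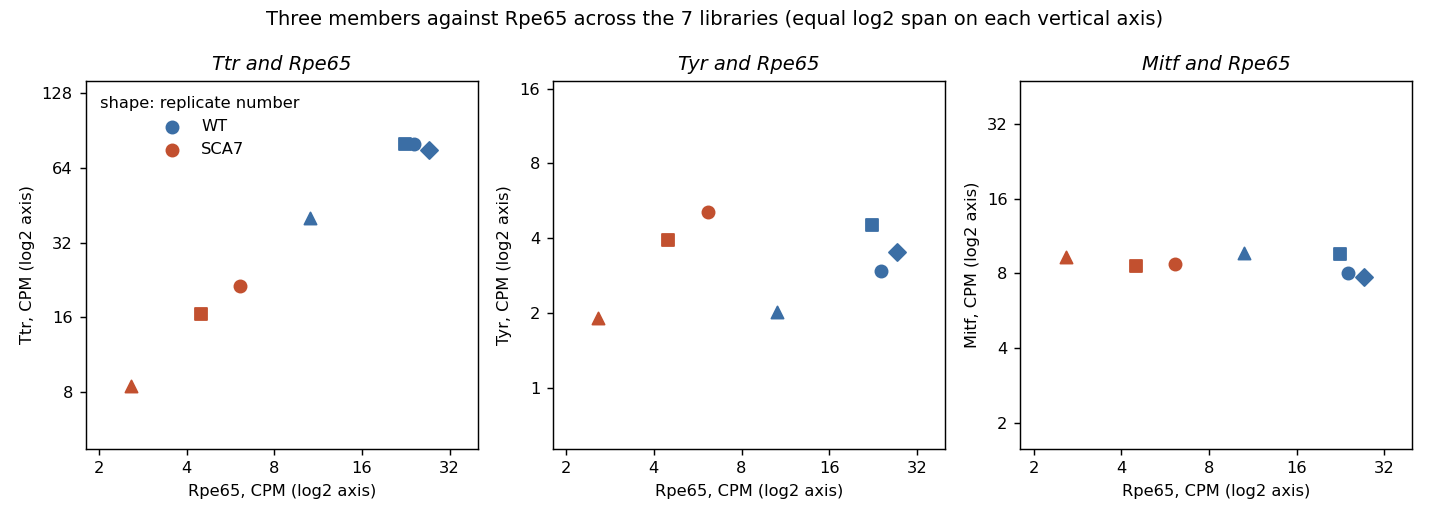
CPM of Ttr, Tyr and Mitf (vertical axes, log2, equal span) against CPM of Rpe65 (horizontal axis, log2) in the 7 libraries, WT in blue and SCA7 in orange, with the shape giving the replicate number. Ttr rises with Rpe65 along a line through both genotypes, Tyr overlaps between the genotypes while Rpe65 does not, and Mitf is level across the range.

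The main ratio planned was against the sum of the RPE markers, given below, with *Rpe65* alone as an alternative. Set against *Rpe65* in the same library, *Ttr* was level. *Rpe65* had a log2 fold change of -2.29, close to -2.17 for *Ttr*. *Lrat* (-3.21) and *Rdh5* (-1.50) lay on either side, so being level holds for *Rpe65* and not for each marker. Its CPM was 3.31, 3.55, 3.81 and 2.78 times that of *Rpe65* in the WT libraries and 3.49, 3.67 and 3.29 times in the SCA7 libraries. The SCA7 ratios lay within the WT range, and the difference of log2 ratios was 0.058 (exact two-sided permutation test, p = 0.74). The other 9 members stood higher against *Rpe65* in every SCA7 library than in any WT library, as did 90.6% of all genes tested, so that this count is at the background set by the decrease of *Rpe65* itself and is no result about the members. No member stood below WT without overlap, against 0.0845% of all genes tested. The difference of log2 ratios (SCA7 minus WT) was between 1.301 for *Pmel* and 3.37 for *Slc45a2*, with 2.38 for *Tyr*, 2.71 for *Tyrp1* and 1.72 for *Dct*. The exact permutation p was 0.0286 for 7 of the 9 genes, 0.057 for *Mitf* and 0.086 for *Pmel*, without adjustment over the 10 ratios compared. These ratios carry the decrease of *Rpe65*, and do not show that any member increased.

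**Figure D4:**
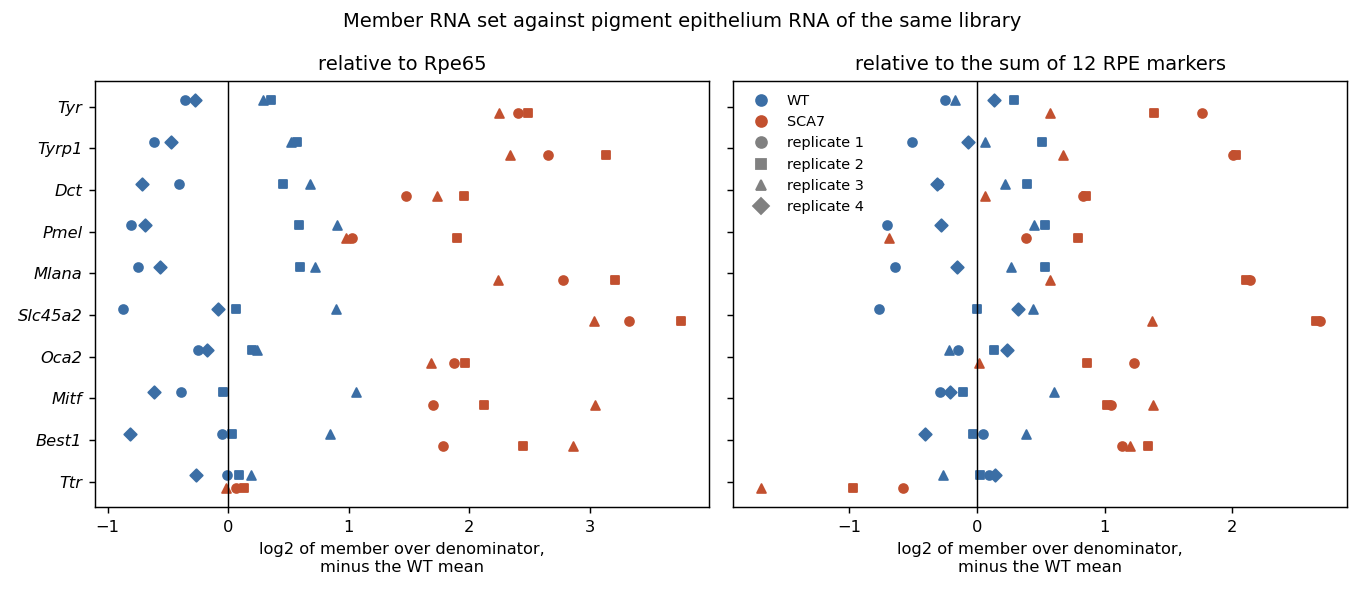
Log2 of each member's CPM over that of Rpe65 (left) or over the summed CPM of the 12 RPE markers (right) in the same library, shown as the difference from the WT mean, with WT in blue above and SCA7 in orange below each gene's line. Against Rpe65, Ttr is level (0.058) and the other 9 genes are higher in SCA7, as are 90.6% of all genes tested. Against the sum, 6 genes are higher without overlap and Ttr is lower, as are 80.8% and 0.666% of all genes tested, so the 6 are not above the background.

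Against the sum of all 12 RPE markers, which was carried mainly by *Rgr* and *Krt18* in WT and by *Krt18* in SCA7 retina, 6 members stood above WT without overlap (*Tyr*, *Tyrp1*, *Mlana*, *Slc45a2*, *Mitf* and *Best1*), and *Dct*, *Pmel* and *Oca2* overlapped. Of all genes tested, 80.8% stood above WT against this sum and 0.666% below, so the count of members is not above the background, and *Mitf* and *Best1* are in it with log2 fold changes of 0.016 and 0.083 of their own. *Krt18*, a keratin of simple epithelia, had 68.8 ± 9.37 CPM (SD) in the WT and 57.5 ± 4.77 CPM (SD) in the SCA7 libraries and was not called. The log2 difference against the sum was 1.24 for *Tyr*, 1.57 for *Tyrp1*, 1.60 for *Mlana*, 2.24 for *Slc45a2* and -1.08 for *Ttr* (exact permutation p = 0.0286 for each). Without *Rgr*, *Krt8* and *Krt18* in the sum, 7 members stood above WT without overlap, with *Oca2* added, against 76.2% of all genes tested. *Ttr* was again below (-1.04), as were 0.551% of all genes tested. This smaller sum was 47.7, 41.2 and 31.2 CPM in SCA7 replicates 1 to 3. *Rrh*, with a log2 fold change of -0.13 and not called, gave 18.9, 18.4 and 18.6 CPM of it. The smaller sum therefore also rests in part on a marker that hardly changed. *Rpe65* had a lower log2 fold change than 8 of the 11 other RPE markers.

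Of 10 further melanosome components, 1 was downregulated and 1 upregulated, with a median log2 fold change of 0.098. *Cd63*, a tetraspanin of many endosomal organelles, rose by 0.52 (adjusted p = 3.2e-04), and *Rab38*, which routes enzymes to the melanosome, had a log2 fold change of -0.69 (adjusted p = 0.027). *Gpr143* and *Slc24a5*, which are more particular to pigment cells, had log2 fold changes of 0.80 and -0.052 and were not called (adjusted p = 0.19 and 0.92). Of the 20 genes of the BLOC and AP-3 complexes with *Lyst*, which build lysosome-related organelles in many cell types, 1 was downregulated and none upregulated, with a median of 0.095. That gene was *Hps3*, which averaged 128 ± 10.7 CPM (SD, n = 4) for WT against 71.6 ± 4.39 CPM (SD, n = 3) for SCA7 (log2 fold change -0.83, adjusted p = 9.4e-06).

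Of 7 genes of melanosome transport, 2 were upregulated and 1 was downregulated. *Myo7a*, a myosin of RPE and photoreceptors, rose by 0.96 (adjusted p = 1.4e-05). *Rab27a*, which links melanosomes to their motors, rose by 0.81 (adjusted p = 5.0e-05), and *Myrip*, which bridges the products of both, had a log2 fold change of -0.68 (adjusted p = 2.1e-05). All 3 had a WT mean of at least 11.6 CPM and are also used by cells of the neural retina. Of 9 further transcription factors, the *Mitf* relatives and regulators of optic cup fate, 8 were tested and none was called with the fold change limits. *Tfe3*, *Otx2* and *Sox9* had adjusted p of 0.010, 0.0059 and 0.019 with log2 fold changes of 0.29, 0.27 and 0.37, within those limits. *Tfec* did not pass the expression filter.

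Of the 2 other bestrophins, *Best2*, a marker of the nonpigmented ciliary epithelium, was downregulated. It had 250, 33, 52 and 139 counts in the WT libraries and 9, 11 and 3 counts in the SCA7 libraries. The log2FC was -4.35 ± 1.10 (SE; adjusted p = 0.033), and WT values ranged more widely than those of any member. *Best3* was not called (-0.31, adjusted p = 0.27). Of 9 genes for the carriage of retinol and thyroid hormone, the cargo of transthyretin, 3 were downregulated. The thyroid hormone receptor gene *Thrb* had a log2 fold change of -0.66 (adjusted p = 2.8e-05), the deiodinase gene *Dio3* -1.78 (adjusted p = 0.046) and the thyroxine transporter gene *Slco1c1* -0.72 (adjusted p = 0.027). *Rbp4*, the plasma carrier that binds transthyretin, averaged 0.843 ± 0.202 CPM (SD) for WT against 0.658 ± 0.122 CPM (SD) for SCA7 and was not called.

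Markers of other cells that could be carried along with the retina were read in the same libraries. Of 8 markers of choroid and sclera stroma, none was downregulated and *Pdgfra*, which retinal astrocytes also use, was upregulated (0.62, adjusted p = 3.5e-04). Their log2 fold changes were below 0 for 6 of the 8. The summed level of the 8 was from 36.3 to 54.2 CPM in WT and from 38.2 to 47.4 CPM in SCA7. Without *Pdgfra*, the other 7 summed to 38.8, 27.0, 19.9 and 23.6 CPM in WT replicates 1 to 4 and to 21.2, 25.9 and 15.1 CPM in SCA7 replicates 1 to 3, and the genotypes overlapped. Of 5 neural crest melanocyte markers, 4 were tested. *Mc1r*, the melanocortin receptor, fell, averaging 4.17 ± 0.740 CPM (SD, n = 4) for WT against 1.72 ± 0.428 CPM (SD, n = 3) for SCA7 (log2FC -1.26, adjusted p = 4.1e-04), and *Erbb3* rose by 0.70 (adjusted p = 0.020). The summed level of the 5 was from 8.85 to 11.95 CPM in WT and from 7.33 to 7.85 CPM in SCA7. *Pax3* was below the filter, and *Sox10* was at most 0.671 CPM in any library. Of 8 markers of choroid plexus and ciliary epithelium, where *Ttr* is also made, 3 were downregulated, *Kcne2* (-2.50), *Aqp1* (-1.53) and *Clic6* (-1.06), with adjusted p between 1.3e-07 and 0.015. The other 5 were not called. The summed level of all 8 was 425, 445, 443 and 383 CPM in WT replicates 1 to 4. It was 188, 195 and 202 CPM in SCA7 replicates 1 to 3. Unlike *Ttr*, this sum was not lowest in replicate 3 of either genotype. A sum can be carried by a few abundant genes, and the part of these markers in the level of *Ttr* was not tested.

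Of 7 endothelial markers, 4 were upregulated, with *Vwf* at 1.73 (adjusted p = 1.9e-06), and the other 3 had log2 fold changes below 0, with *Cldn5*, a tight junction gene, at -0.48 (adjusted p = 0.011, within the fold change limits). *Plvap*, a marker of fenestrated vessels such as the choriocapillaris, had a log2 fold change of -0.0095 (adjusted p = 0.96). All 10 microglial markers were upregulated, with summed levels from 48.4 to 62.7 CPM in WT and from 119.8 to 135.5 CPM in SCA7. *Gpnmb*, a *Pmel* relative that melanocytes and phagocytes both use, averaged 15.7 ± 5.55 CPM (SD) for WT against 17.7 ± 2.45 CPM (SD) for SCA7 (log2 fold change 0.17, adjusted p = 0.71). Of 7 Müller glia markers, 2 were upregulated and none downregulated, and of 6 skeletal muscle markers 4 were tested and 2 downregulated.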

How the data were processed

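Total RNA of the 2 retinas of each mouse was depleted of ribosomal RNA and made into stranded libraries by the authors, who sequenced single reads of 50 bases, aligned them to mm10 with TopHat2 2.0.14 and Bowtie2 2.1.0 and used HTSeq 0.6.1 to count reads for each Ensembl gene. The deposited table gives these unnormalized counts of 52550 genes in 7 libraries. The strand setting of HTSeq is not given in the sources used here. How retinas were freed of RPE is not described in the sources used here.

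Names, positions and lengths came from GENCODE M21 (GRCm38), which covered 52403 genes. Genes were kept by filterByExpr of edgeR, scaled by TMM and compared with its robust quasi-likelihood test without covariates, adjusted by Benjamini-Hochberg over all 20128 genes. Standard errors are the log2 fold change divided by the square root of the F statistic. Permutation tests compared the absolute difference of mean log2 values over all 35 assignments of the genotypes, with 0.01 CPM added for single genes. Libraries were separate mice. TMM factors ran from 0.890 to 0.974 in WT and from 1.065 to 1.09 in SCA7.

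All 10 members are named. Of the other lists, every RPE marker called and, of each pathway list, the called genes with the largest decrease and increase are named, with genes a result turns on. Other genes were named after their values were seen. Alternatives were DESeq2 size factors, the DESeq2 Wald test, limma-voom, no filter beyond a single count, a minimum of 10 counts throughout, a replicate block, the log2 summed level of the RPE markers as a covariate, no fold change limit, an adjusted p under 0.01 and each library left out in turn. Leaving out WT replicate 3 and SCA7 replicate 3 together was chosen after seeing the data. The members and lists were chosen with earlier results of these data known. Steps were tested on simulated counts. R 4.3.3, edgeR 4.0.16, limma 3.58.1 and DESeq2 1.42.0 were used. A knock-in of a repeat cannot be checked in counts per gene. The result of 1 gene of the retinol and thyroid hormone list is not reported here.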

Additional observations from a re-analysis of the deposited data

Results flagged for a closer look

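Among the WT libraries, 4 of 22 genes examined (the 10 members and 12 RPE markers) had 1 library far from the other 3 by Dixon's criterion, of which chance gives about 1 in 20. *Dct* was at 24.1 CPM in WT replicate 2, against 13.0 to 14.2 CPM in the other WT libraries. *Ttr* was at 40.4 CPM in WT replicate 3, against 75.8 to 79.9 CPM, and *Rgr* at 40.003 CPM in the same library, against 80.0 to 82.7 CPM. *Cldn19* was at 3.30 CPM in WT replicate 1, against 0.933 to 1.3003 CPM. Groups of 3 such as the SCA7 libraries were not examined in this way.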

How the results depend on the processing

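The call of *Ttr* rests on 3 SCA7 libraries, and that of *Slc45a2* on 11 to 74 counts per library. The count of members downregulated was 1 except 0 with the RPE markers as a covariate and 0 at an adjusted p under 0.01, and from 0 to 1 with each library left out (0 without SCA7 replicate 2). The count upregulated was 1 but 0 with limma-voom, 0 with the covariate, 0 at an adjusted p under 0.01, and from 0 to 2 with each library left out. RPE markers downregulated numbered 6, but 0 with the covariate, 3 at an adjusted p under 0.01, 5 with no filter beyond 1 count and 7 with limma-voom, and from 3 to 7 with each library left out (3 without SCA7 replicate 2). Genes downregulated among all tested numbered 1592, with 863 under the covariate, 2852 without a fold change limit and from 1071 to 1731 under the other alternatives. Genes upregulated numbered 1504, with 518, 2853 and from 1154 to 1693. The covariate does not overlap between genotypes, so that fit leaves little of the genotype to estimate. There *Ttr* was at -0.10 (adjusted p = 0.95, against 1.3e-31 to 0.95 over all its alternatives), and *Dct*, *Pmel*, *Oca2* and *Mitf* turned sign to 0.77, 0.18, 1.696 and -0.25. *Slc45a2* kept its direction in all alternatives, with adjusted p between 0.0013 and 0.23. Without WT replicate 3 and SCA7 replicate 3 *Ttr* was at -2.06 and *Slc45a2* at 1.53, and both were called.

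The replicate block turned *Mitf* to -0.037 and *Best1* to -0.017, without a call. Under the block the members counted 1 downregulated and 1 upregulated, and 9 RPE markers were downregulated. Whether the numbers pair the mice was not settled. Deviations from the genotype means correlated at 0.0080, 0.20 and 0.081 for replicates 1, 2 and 3, and not every library correlated best with its own number. The sample titles carry close serial numbers within replicates 1 to 3, but the labels name no shared litter, batch or day. With each library left out, *Tyr* ranged from -0.16 to 0.46, *Mitf* from -0.037 to 0.064 and *Best1* from -0.029 to 0.18, without a call. Against the RPE marker sum, *Pmel* ranged from -0.15 to 0.59 with each library left out. *Ttr* changed from -1.08 against the sum to 0.058 against *Rpe65*. The cause was not tested.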
